A study of Mus musculus with 4 samples.

Results

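The melanocyte pigment genes are 10 mouse genes named for the melanin-producing cell: Mlana, Mitf, Tyr, Tyrp1, Dct, Pmel (called Si on older arrays), Mlph, Slc45a2, Gpr143 and Tspan10. They were picked by gene name on the array, because Mlana was among the largest differences in the comparison described here, and 12 probes of the array measured them. Of the 10 genes, 5 had a probe bright enough to enter the comparison, out of 17537 genes or unnamed features that did so in all. Differences of these 10 genes are therefore given as a description, with no p-value.

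The samples were 4 preparations of total RNA from cultured mouse germline stem cells, the dividing cells that can be grown from the spermatogonial stem cells of the testis, and each was hybridised to 1 one-colour Agilent array. In the labels' spelling the cells carried a Rose-CRE-ERT2 knockin, a recombinase that acts once 4-hydroxytamoxifen binds it, and CAG-CAT-3FlagNanos2-pA, a construct with the CAG promoter that gives tagged Nanos2 after recombination. The group given 4-hydroxytamoxifen and the group given its solvent, DMSO, held 2 arrays each, both taken at 48 hours, and both groups carried the knockin and the construct. The cells grew on mitomycin-C-treated C57Bl6 embryonic fibroblasts, taken from embryos at day 13.5 and removed before RNA extraction, with GDNF and EGF at 20 ng/ml each and FGF2 at 10 ng/ml. No cells without the construct received 4-hydroxytamoxifen, so effects of Nanos2, of the compound and of the recombinase cannot be told apart. The labels do not say whether the arrays of a group came from separate cultures or whether 1 line was used, so all p-values measure the spread between these arrays, which may be technical.

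Melanin is made in melanosomes, organelles related to lysosomes. MITF is the transcription factor that switches on most pigment genes in melanocytes, and it binds short E-box sequences such as TCATGTG in their promoters. Tyr, Tyrp1 and Dct are the enzymes of melanin synthesis, Pmel forms the fibrils on which melanin is laid down, Mlana acts with Pmel in the young melanosome, and Mlph links the melanosome to its motor. The retinal pigment epithelium of the eye uses many of the same genes.

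The sequences shown first are the opening 30 of the 60 bases of the probes that measured Mlana, Mitf, Dct, Pmel and Mlph, since the differences below rest on these probes alone. They are written as the array design gives them, with no capitals, because no part of a probe is singled out.
Mlana probe: gccagtgctaaattcttgacagggcaagca
Mitf probe: agcgtgcagtatctgtgaactgatttctcc
Dct probe: ttgtacacagacaaaatgcttgggtcattc
Pmel probe: atctctgatactaggcatagacttaagaag
Mlph probe: caggtgatctgagctcttctatctattttt
The scanner files place the whole probes, on build mm9, at chr19:29782839-29782898 for Mlana, chr6:97968386-97968445 for Mitf, chr14:118412048-118412105 for Dct, chr10:128156029-128156986 for Pmel and chr1:92847324-92847383 for Mlph. The Pmel position is longer than the probe, and no exon annotation of mm9 was used here.

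RefSeq promoters on build GRCm38.p6 were matched for 6 of the 10 genes, 8 promoters in all because Mitf has 3. No promoter was matched for Mlana, Pmel, Slc45a2 or Gpr143, so these genes were not searched for E-boxes. The windows below show the E-box matches in the 250 bases before the start that lie nearest to it, with the match in capitals and up to 20 bases on each side. TCATGTG or its complement CACATGA was present in 4 of these 8 promoters, against 3.25% of the 32851 promoters searched in the same way. The windows are read along the strand of the gene.
Tyr, chr7:87493513-87493554, minus strand: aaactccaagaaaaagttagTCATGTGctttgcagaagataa
Tyrp1, chr4:80834146-80834192, plus strand: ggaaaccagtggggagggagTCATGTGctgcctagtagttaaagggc
Dct, chr14:118052371-118052417, minus strand: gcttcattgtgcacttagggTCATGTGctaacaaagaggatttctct
Tspan10, chr11:120442590-120442630, plus strand: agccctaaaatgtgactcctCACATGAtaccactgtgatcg
Mlph, chr1:90915032-90915077, plus strand: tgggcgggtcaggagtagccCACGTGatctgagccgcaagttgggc
The shorter CATGTG, which TCATGTG contains, was present in the same number of these promoters, 4 of 8, against 12.3% of all. CACGTG, which reads the same on both strands, was present in Mlph's promoter and in none of the other 7, against 6.02% of all. These matches describe letters in a window and do not mark sites in use. E-boxes such as TCATGTG are named above as bound by MITF in pigment gene promoters, so nothing is read from these shares. Of the 4 genes whose promoters hold TCATGTG, Dct was the one above background on both 4-hydroxytamoxifen arrays, as the values below show.

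Signals below are the processed signals of the scanner program, on a linear scale, and are set against each other for 1 probe at a time. Differences are in log2 units after each array was divided by its 75th percentile, positive where 4-hydroxytamoxifen was higher, and ± gives limma's standard error (n = 2 arrays each). A probe counts as above background on an array where the scanner program flagged most of its spots as well above background. The lowest signal so flagged was between 15 and 19.5 on the 4 arrays, and 62.1% to 65.9% of spots passed. With 2 arrays a group an exact permutation test cannot go below a two-sided p of 0.333, so tests of other genes come from limma across all features.

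Nanos2, the gene the construct carries, had signals of 904 and 1070 on the 4-hydroxytamoxifen arrays, against 353 and 352 on the DMSO arrays. It was higher by 1.55 ± 0.10 (limma, adjusted p = 0.000868). The probe lies at chr7:19573771-19573830 on mm9 and does not tell the construct's transcript from the cells' own.

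Mlana, the melanosome protein also known as MART-1 in human, had signals of 1404 and 1475 on the 4-hydroxytamoxifen arrays, against 35.1 and 33.2 on the DMSO arrays. All 4 arrays were above background, and the groups lie far apart, with the arrays of each group close together. The difference was 5.47 ± 0.07, or 44.3-fold. It was the largest difference in the higher direction among the 15913 features above background on all 4 arrays, which is the property it was chosen for. Mlana has 1 probe on the array, with 1 spot per array, so no second probe bears on this value.

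Mitf, the transcription factor that gives the melanocyte its identity, was measured by 10 repeated spots of 1 probe and by a single spot of another. The repeated probe averaged 47.1 and 55.4 on the 4-hydroxytamoxifen arrays, against 23.8 and 26.6 on the DMSO arrays, a difference of 1.09 ± 0.11 or 2.13-fold. Its separate spots ranged over 40.6 to 53.1 and 46.7 to 65.1 on the 4-hydroxytamoxifen arrays, against 22.2 to 26.1 and 19.5 to 31.8 on the DMSO arrays. No spot of a DMSO array reached the lowest spot of a 4-hydroxytamoxifen array, although all 4 averages lie close to background. The other Mitf probe, whose mm9 position of chr6:97956187-97960443 spans 4257 bases, read 3.15 and 5.73 on the 4-hydroxytamoxifen arrays, against 3.45 and 3.87 on the DMSO arrays. That probe was below background on all 4 arrays, so Mitf was seen with 1 of its 2 probes.

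**Figure D1:**
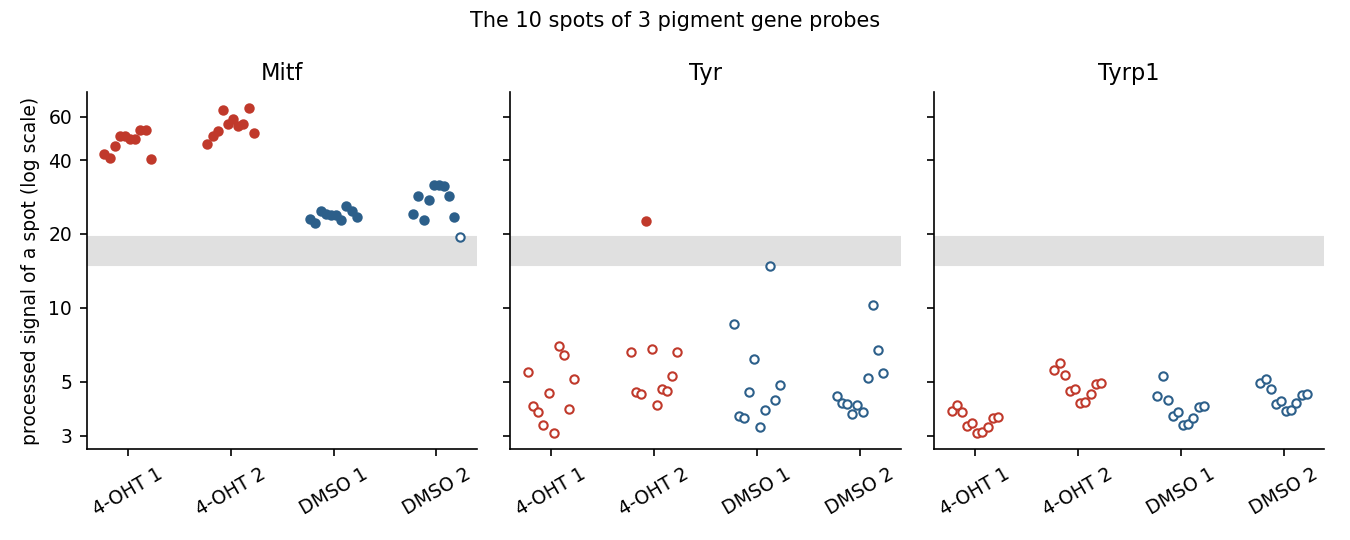
Processed signal (log axis) of each of the 10 repeated spots of the Mitf, Tyr and Tyrp1 probes, with the 2 arrays of 4-hydroxytamoxifen (4-OHT) left of the 2 arrays of DMSO. The Mitf spots of the 4-hydroxytamoxifen arrays, 40.6 to 65.1, all lie above those of the DMSO arrays, 19.5 to 31.8, while nearly all Tyr and Tyrp1 spots lie below the grey band, which spans the lowest signals well above background. Filled points are spots flagged well above background, and all 10 spots are drawn, outlier spots such as the Tyr point at 22.5 included.

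Tyr, the enzyme that starts melanin synthesis, averaged 4.56 and 5.25 over 9 and 8 of its 10 spots on the 4-hydroxytamoxifen arrays, against 4.52 and 4.89 over 9 and 10 spots on the DMSO arrays. Tyrp1, which acts later in the same pathway, averaged 3.47 and 4.82 over 10 spots each on the 4-hydroxytamoxifen arrays, against 3.80 and 4.34 over 8 and 10 spots on the DMSO arrays. Both genes were below background on all 4 arrays, and such values have no order. The spots missing from these averages were flagged as outliers by the scanner program, among them a Tyr spot that read 22.5 on the second 4-hydroxytamoxifen array. Their repeated spots make them the most often measured pigment genes here together with Mitf.

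Dct, the third enzyme of the pathway, was measured by 2 probes. The brighter probe had signals of 75.6 and 76.3 on the 4-hydroxytamoxifen arrays, against 20.3 and 12.5 on the DMSO arrays, of which the first was above background and the second was not. The difference was 2.32 ± 0.26, or 5.0-fold, and is not exact because 1 DMSO array was below background. The other probe, at chr14:118438837-118438896 on mm9, read 24.3 and 18.3 on the 4-hydroxytamoxifen arrays, against 4.34 and 4.89 on the DMSO arrays, and was above background on 1 of the 4 arrays, the first of 4-hydroxytamoxifen. No fold is given for that probe, so the difference in Dct rests on the brighter one.

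Pmel, the fibril protein, differed in the other direction. Its signals were 64.1 and 81.7 on the 4-hydroxytamoxifen arrays, against 255 and 265 on the DMSO arrays, with all 4 arrays above background and no overlap. The difference was −1.78 ± 0.14, which is 3.42-fold lower with 4-hydroxytamoxifen. Mlana and Pmel, whose proteins act together in the melanosome, thus differed in opposite directions.

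Mlph, the adaptor that ties melanosomes to the motor myosin Va, had signals of 66.7 and 69.5 on the 4-hydroxytamoxifen arrays, against 13.4 and 18.3 on the DMSO arrays. Neither DMSO array was above background, so the difference is a bound, at least 4.16-fold higher with 4-hydroxytamoxifen, set by the lowest signal that counts as above background on each DMSO array.

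The 3 remaining genes were near or below background. Slc45a2, a melanosome transporter, read 10.5 and 11.5 on the 4-hydroxytamoxifen arrays, against 7.35 and 3.70 on the DMSO arrays, and was above background on none. Gpr143, the ocular albinism receptor, read 3.01 and 3.91 on the 4-hydroxytamoxifen arrays, against 20.6 and 3.66 on the DMSO arrays, with the first DMSO array alone above background. Tspan10, a tetraspanin, read 4.17 and 31.2 on the 4-hydroxytamoxifen arrays, against 4.32 and 4.05 on the DMSO arrays, with the second 4-hydroxytamoxifen array alone above background. In Gpr143 and Tspan10 the 2 arrays of 1 group therefore disagreed on whether there was any signal.

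Over the 10 genes, 3 were above background on all 4 arrays (Mlana, Mitf and Pmel), Dct and Mlph on both 4-hydroxytamoxifen arrays and on 1 or neither DMSO array, 2 on a single array, and 3 on none. The call rule used for all features, an adjusted p under 0.05 in limma, would mark 4 of the 5 genes as higher and 1 as lower, beside 40.3% and 29.3% of all 17537 features, or 69.5% in either direction. The same 4 and 1 genes differed by at least 2-fold, beside 16.2% higher and 8.19% lower of all features. Mitf, at 1.09, did so narrowly. It was under 2-fold with quantile normalization (0.88), median scaling (0.91), spike-in scaling (0.94) and without the second 4-hydroxytamoxifen array (0.97). With normexp background correction Mitf (0.41), Dct (0.90) and Mlph (0.83) were all under 2-fold. The 4 and 1 genes were also without overlap between the groups, as were 86.5% of all features, 48.9% in the higher and 37.6% in the lower direction. The genes were picked from this contrast, and Dct and Mlph entered it through the 4-hydroxytamoxifen arrays, so nothing is read from these counts. The higher and lower shares also depend on the scaling: 7060 features were higher and 5135 lower as scaled here, 5715 and 6662 with median scaling, and 4853 and 4806 with spike-in scaling. Between the scalings the median difference of all features lay at 0.11 as scaled here, −0.07 with median scaling and −0.04 with spike-in scaling.

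**Figure D2:**
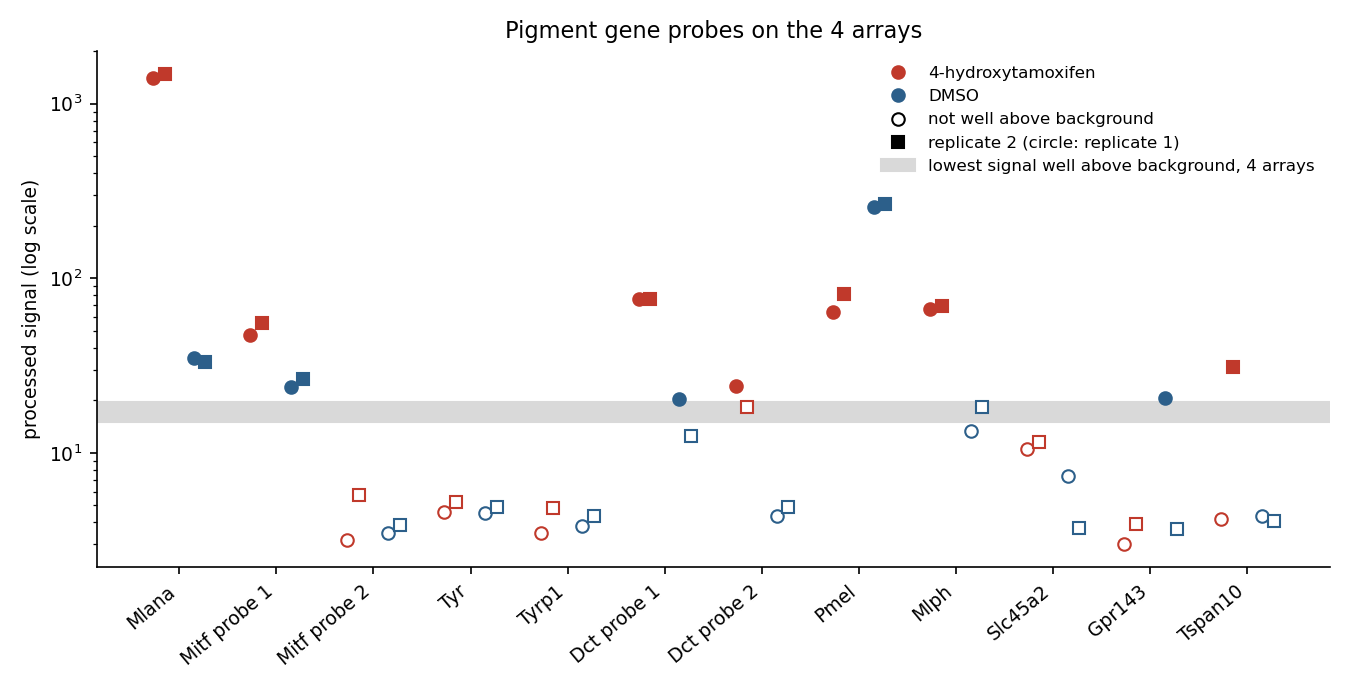
Processed signal (log axis) of each of the 12 probes of the 10 pigment genes on every array, 4-hydroxytamoxifen left of DMSO, with filled and unfilled symbols for arrays above and not above background and a grey band over the lowest signals above background. Mlana separates the groups most, at 1404 and 1475 against 35.1 and 33.2, Pmel runs the other way, and the symbols of Tyr and Tyrp1 are unfilled on every array.

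**Figure D3:**
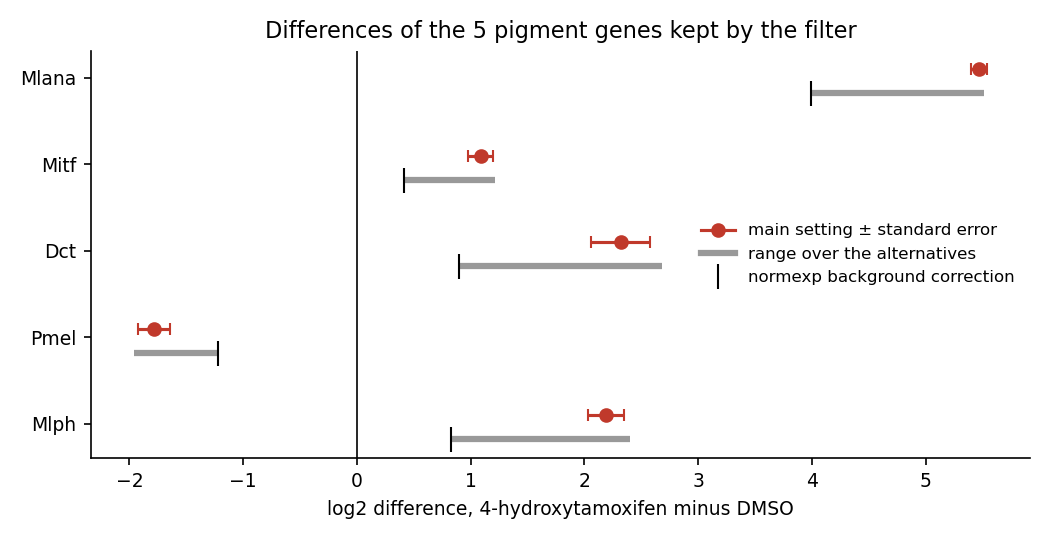
Log2 difference, 4-hydroxytamoxifen minus DMSO, of the 5 pigment genes that could be compared, as reported (points, with standard errors) and as a range over the alternative processings (bars, with a tick for normexp). Every value keeps its side of 0, and that of Mlana lies between 3.99 and 5.51.

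Regulators of the melanocyte lineage other than Mitf were a list of 16 genes, of which 10 were measured. Of these, 5 were higher and 2 lower with 4-hydroxytamoxifen, beside 40.3% and 29.3% of all features, with a median difference of 0.42. Lef1, a transcription factor of the Wnt pathway, had signals of 383 and 351 on the 4-hydroxytamoxifen arrays, against 37.9 and 43.3 on the DMSO arrays, higher by 3.25 ± 0.10 (adjusted p = 0.000381). Its other probe gave a difference of 2.78. Kitl, the ligand of the KIT receptor, had signals of 360 and 347 on the 4-hydroxytamoxifen arrays, against 109 and 140 on the DMSO arrays, higher by 1.59 ± 0.14 (adjusted p = 0.0014). Zeb2 and Snai2, a pair of zinc-finger factors also known from mesenchymal cells, were higher by 1.47 ± 0.10 and 1.35 ± 0.10 (adjusted p = 0.000835 and 0.00104), and the other Zeb2 probes gave 0.96 and 1.06. Kit itself, the receptor that melanocyte precursors and differentiating spermatogonia share, was lower, at 147 and 162 on the 4-hydroxytamoxifen arrays, against 262 and 251 on the DMSO arrays (−0.66 ± 0.08, adjusted p = 0.00321). Ligand and receptor thus moved in opposite directions.

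Sox10, the neural crest factor that drives Mitf in melanocytes, read 51.1 and 62.8 on the 4-hydroxytamoxifen arrays, against 48.6 and 55.2 on the DMSO arrays. Its difference of 0.20 ± 0.13 did not pass (adjusted p = 0.244), and the arrays of the groups overlapped. Pax3, Edn3, Mc1r, Foxd3, Irf4 and the gene of agouti signalling protein were below background on all 4 arrays. Pax3 is the other well-known upstream regulator of Mitf, and Mc1r is the receptor that sets the kind of melanin made.

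The relatives of Mitf and its targets outside pigment synthesis were 12 genes, all measured, of which 8 were higher and 1 lower, beside 40.3% and 29.3% of all features, with a median difference of 1.06. Trpm1, Tfec and Ppargc1a were below background on both DMSO arrays. They entered the comparison through the 4-hydroxytamoxifen arrays, so nothing is read from their part in the count or the median. With a filter on all 4 arrays 5 genes of this list were higher and 2 lower. Trpm1, the channel gene whose transcripts are high in melanocytes, had signals of 32 and 29.9 on the 4-hydroxytamoxifen arrays, against 3.84 and 4.29 on the DMSO arrays, at least 1.89-fold higher. Bcl2, the survival factor, was higher by 1.51 ± 0.14 (adjusted p = 0.00154), with its second probe at 1.05. Tfec, a relative of Mitf found in macrophages, had signals of 51.6 and 32.7 on the 4-hydroxytamoxifen arrays, against 14.8 and 17.0 on the DMSO arrays, at least 2.51-fold higher. Hif1a, the hypoxia factor, was higher by 1.27 ± 0.09 (adjusted p = 0.000912). The 3 relatives did not move alike: Tfeb was lower by a small margin (−0.41 ± 0.13, adjusted p = 0.044), and Tfe3 did not pass (−0.15 ± 0.08, adjusted p = 0.162). Tfeb no longer passed with normexp background correction, without the filter, or without the first DMSO or the second 4-hydroxytamoxifen array.

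Transporters and channels of the melanosome membrane were 6 genes beside Slc45a2, of which 4 were measured and 1 was higher, beside 40.3% of all features. That gene was Slc7a11, the cystine transporter that feeds red-yellow pigment and glutathione synthesis, with signals of 110 and 97.6 on the 4-hydroxytamoxifen arrays, against 18.7 and 18.2 on the DMSO arrays (2.56 ± 0.09, adjusted p = 0.000408). Of the 2 DMSO arrays, 1 was above background, so the difference is not exact. Slc7a11 was left out with a filter on all 4 arrays. The melanosome exchanger Slc24a5 gave 192 and 239 on the 4-hydroxytamoxifen arrays, against 201 and 228 on the DMSO arrays, and did not pass (0.07 ± 0.14, adjusted p = 0.658). Its groups overlapped. Atp7a, the copper pump that loads tyrosinase, did not pass either (0.04 ± 0.08, adjusted p = 0.703), and Oca2, a melanosome chloride channel, was below background on all 4 arrays.

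Genes that build and move melanosomes, most of which serve lysosome-related organelles in many cell types, were 32, of which 31 were measured. With 4-hydroxytamoxifen 15 were higher, 1 was lower and 15 did not pass, with a median difference of 0.38. Over all features 40.3% were higher and 29.3% lower. Sytl2, an effector of RAB27 proteins, had signals of 233 and 209 on the 4-hydroxytamoxifen arrays, against 70.5 and 76.4 on the DMSO arrays (1.66 ± 0.09, adjusted p = 0.000645). Rab32, a GTPase that delivers pigment enzymes to the melanosome, had signals of 2998 and 3007 on the 4-hydroxytamoxifen arrays, against 1122 and 1232 on the DMSO arrays (1.42 ± 0.07, adjusted p = 0.000599). The groups were well apart for both. Bace2, the protease that cuts Pmel, was higher by 1.03 ± 0.21 (adjusted p = 0.0144) and by 1.85 with its second probe, but did not pass without either 4-hydroxytamoxifen array. Cd63, the tetraspanin that sorts Pmel, was higher by 0.86 ± 0.07 (adjusted p = 0.00114).

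Rab38, the close relative of Rab32, had signals of 64.6 and 69.8 on the 4-hydroxytamoxifen arrays, against 20.9 and 46.5 on the DMSO arrays, and did not pass (1.18 ± 0.41, adjusted p = 0.0601). The DMSO arrays differed from each other by more than 2-fold, and 1 of them was below background. Rab38 passed in 5 of the 12 alternatives that kept it, namely normexp, spike-in scaling, the replicate block, and without either DMSO array. Myo5a, the motor that Mlph recruits, was higher by 0.78 ± 0.10 (adjusted p = 0.00323), while Rab27a, the GTPase between them, was above background on 1 array. The 1 lower gene was Stx12, a membrane fusion protein, at −0.22 ± 0.07 (adjusted p = 0.0493). It was lower in 4 of the 13 alternatives and did not pass in the other 9. With spike-in scaling, 8 genes of this list were higher in place of 15.

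**Figure D4:**
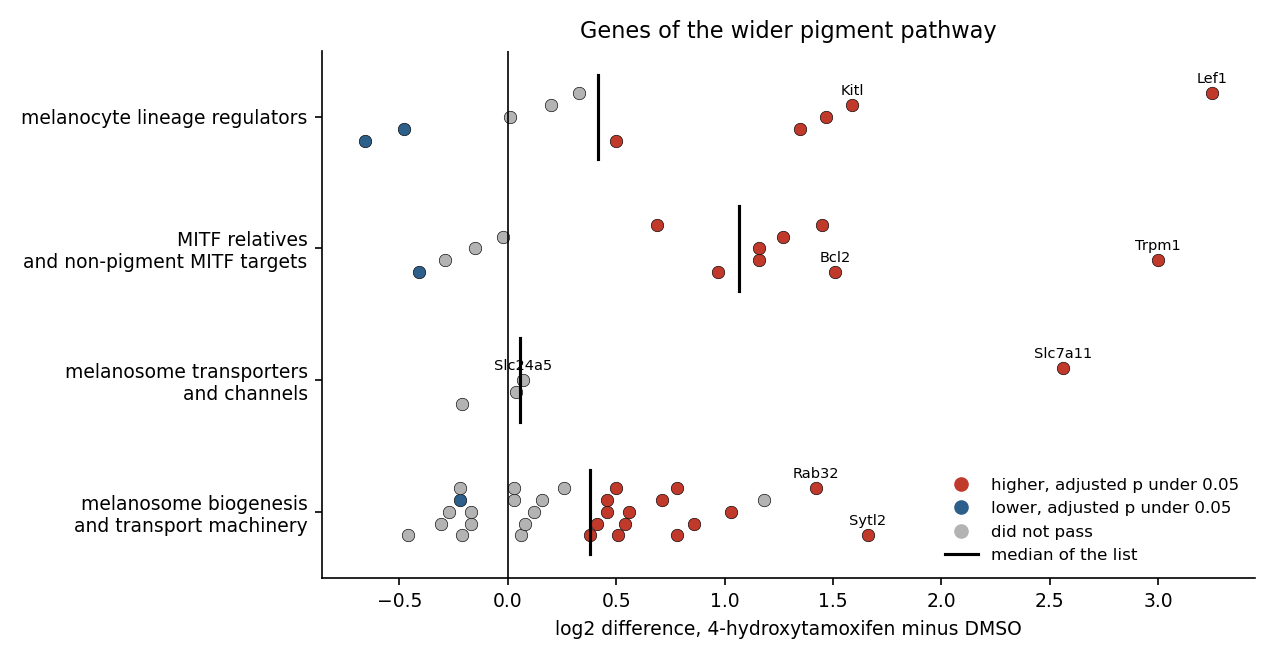
Log2 difference, 4-hydroxytamoxifen minus DMSO, of each measured gene of the 4 lists of melanocyte and melanosome genes, with a bar at the median of each list. The medians are 0.42 for lineage regulators, 1.06 for Mitf relatives and targets, 0.06 for transporters and channels and 0.38 for biogenesis and transport, beside 0.11 for all features. The median of Mitf relatives and targets includes Trpm1, Tfec and Ppargc1a, which entered through the 4-hydroxytamoxifen arrays.

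Markers of cell types that use pigment genes, or that the culture could hold, were read beside these values. Their counts stand beside 40.3% higher and 29.3% lower of all features. Of 8 melanocyte markers other than the 10 genes, 5 were measured and 2 were higher, Trpm1 and Gpnmb, which are also among the Mitf targets above. Trpm1 entered the comparison through the 4-hydroxytamoxifen arrays, so nothing is read from its part in this count either. Gpnmb alone read 1715 and 1801 on the 4-hydroxytamoxifen arrays, against 797 and 858 on the DMSO arrays, and it makes up most of the sum that follows. Pax3, Mc1r and Oca2 were below background on all arrays, and the summed signal of the list was 2041 and 2184 on the 4-hydroxytamoxifen arrays, against 1105 and 1226 on the DMSO arrays. Of 7 markers of the retinal pigment epithelium, 6 (Rpe65, Rlbp1, Lrat, Rgr, Otx2 and Ttr) were below background on all arrays, and Best1 was higher (0.52), though it did not pass with spike-in scaling. That list summed to 567 and 581 on the 4-hydroxytamoxifen arrays, against 424 and 418 on the DMSO arrays.

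The feeder layer is fibroblast. With 4-hydroxytamoxifen 9 of 10 embryonic fibroblast markers were higher, beside 40.3% of all features, with a median difference of 1.06. They summed to 185846 and 173942 on the 4-hydroxytamoxifen arrays, against 103687 and 120095 on the DMSO arrays. Of 8 macrophage and osteoclast markers, 5 were higher, beside the same 40.3% of all features. The sum of the 8 was 26035 and 26732 on the 4-hydroxytamoxifen arrays, against 12960 and 14412 on the DMSO arrays. Lyz2 made up most of it, at 23097 and 23790 on the 4-hydroxytamoxifen arrays, against 10921 and 12517 on the DMSO arrays. Of the 5, Csf1r (0.24) did not pass in 10 of the 13 alternatives, and Cd68, Ptprc and Acp5 did not pass as reported (0.11, 0.01 and −0.29). Keratinocyte markers, of which Dsg3 and Dsg1a were below background on all arrays, had 3 of 5 measured genes higher, beside 40.3% of all features. They summed to 1285 and 1501 on the 4-hydroxytamoxifen arrays, against 944 and 973 on the DMSO arrays. Of the 3, Ivl was below background on both DMSO arrays. It entered the comparison through the 4-hydroxytamoxifen arrays, so nothing is read from its part in the count. Krt10 (0.61) did not pass with spike-in scaling. Among Schwann cell and neural crest markers, S100b was higher (1.29), and Ngfr and Mbp were lower (−1.31 and −0.95).

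Spermatogonial markers moved the other way: 6 of 8 were lower, beside 29.3% of all features, with a median difference of −1.14. They summed to 30796 and 32133 on the 4-hydroxytamoxifen arrays, against 53013 and 52509 on the DMSO arrays. Among them Gfra1, the GDNF receptor, read 81.5 and 83.1 on the 4-hydroxytamoxifen arrays, against 480 and 464 on the DMSO arrays. Ret, also counted as lower, was below background on both 4-hydroxytamoxifen arrays. It entered the comparison through the DMSO arrays, so nothing is read from its part in the count or the median. Ddx4, the germ cell helicase, was detected on every array, at 18717 and 20047 on the 4-hydroxytamoxifen arrays, against 23794 and 22120 on the DMSO arrays. The part of these cell-type differences in the pigment gene values was not tested. In RNA from a whole culture, fewer cells of a type and less RNA per cell cannot be told apart.

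The genes next to each pigment gene on the chromosome were read to set each value in its place, 3 measured genes on each side, ordered by RefSeq on GRCm38.p6. Of Mlana's 6 neighbours, 4 were higher, beside 40.3% of all features, and none by as much as 2-fold. Ermp1, an endoplasmic reticulum peptidase and the nearest measured gene before it, had signals of 751 and 722 on the 4-hydroxytamoxifen arrays, against 490 and 573 on the DMSO arrays (0.54 ± 0.10, adjusted p = 0.00908). The unnamed 9930021J03Rik, the nearest after it, had signals of 796 and 754 on the 4-hydroxytamoxifen arrays, against 530 and 523 on the DMSO arrays (0.63 ± 0.07, adjusted p = 0.0021). Ric1 and Il33 were higher by 0.52 ± 0.07 and 0.56 ± 0.12 (adjusted p = 0.00374 and 0.014). Cd274, which encodes PD-L1, and Ranbp6 did not pass (0.22 ± 0.07 and 0.09 ± 0.12, adjusted p = 0.0568 and 0.541). With spike-in scaling Ermp1, Ric1 and Il33 no longer passed, and Ermp1 did not pass without the first 4-hydroxytamoxifen array. The step from these neighbours to Mlana's 5.47 is larger than the whole range among them. Mlana was picked for its large difference, so a wide gap was set by that choice and nothing is read from it.

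Over all 10 pigment genes there were 60 neighbours, of which 34 were higher, 8 were lower and 18 did not pass, beside 40.3% higher and 29.3% lower of all features. Their median difference was 0.42 beside 0.11 for all features. Lmod3, a muscle actin nucleator next but one before Mitf, had signals of 356 and 347 on the 4-hydroxytamoxifen arrays, against 42.9 and 43.4 on the DMSO arrays, and its difference of 3.1 ± 0.06 exceeded that of Mitf (adjusted p = 0.000369). Of all features, 16.2% passed and were at least 2-fold higher. Beside Tyr, which was below background, 4 of 6 neighbours were at least 2-fold higher. They were Grm5, a glutamate receptor, at least 3.11-fold higher, and Ctsc, Folh1 and Nox4, at 1.76 ± 0.07, 1.24 ± 0.09 and 1.10 ± 0.06. Grm5 was below background on both DMSO arrays and entered the comparison through the 4-hydroxytamoxifen arrays. Beside Tyrp1, also below background, all 6 neighbours were higher, and Ptprd, Nfib and Lurap1l were so by at least 2-fold, at 1.34 ± 0.12, 1.07 ± 0.12 and 1.06 ± 0.07. Of the other 3, Dmac1 (0.29) did not pass in 8 of the 13 alternatives and Mpdz (0.38) in 7, median and spike-in scaling among both.

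Beside Dct, Slitrk5 was higher by 1.65 ± 0.20, and beside Gpr143, Mageh1 and Gpr173 were higher by 1.32 ± 0.26 and 1.17 ± 0.24, though Mageh1 and Gpr173 did not pass without either 4-hydroxytamoxifen array. Slitrk5 and Gpr173 were above background on 1 of the 2 DMSO arrays, so their differences are not exact. Beside Mlph, Lrrfip1 was higher by 1.18 ± 0.08 while Rbm44 and Cops8 were lower, at −1.55 ± 0.08 and −1.10 ± 0.11. The predicted gene Gm5396, beside Gpr143, was lower at −1.43 ± 0.11, and its signal is uncertain where close copies share the probe's sequence. No neighbour of Pmel, Slc45a2 or Tspan10 differed by 2-fold or more. Pmel, lower by 1.78, had 1 higher and 2 lower genes among its 6 neighbours. The lower Rab5b (−0.31) did not pass in 7 of the 13 alternatives, the lower Ikzf4 (−0.56) with the mean of its probes, and the higher Dgka (0.53) with spike-in scaling.

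**Figure D5:**
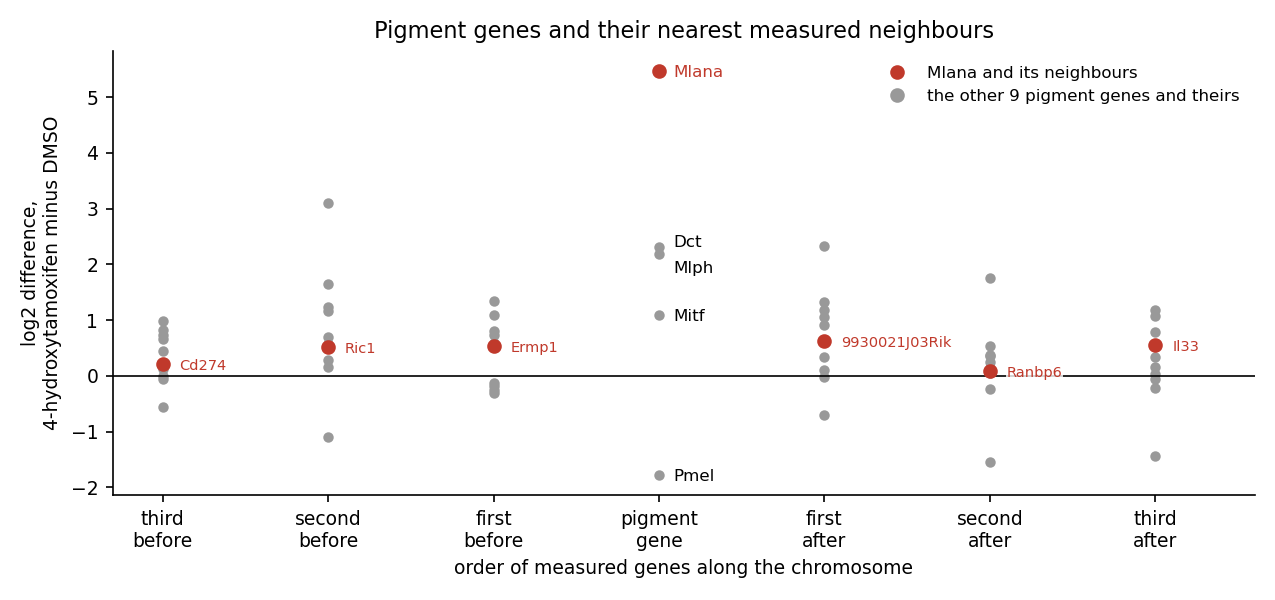
Log2 difference, 4-hydroxytamoxifen minus DMSO, of the pigment genes that could be compared and of the 3 measured genes on each side of all 10, in chromosome order. Mlana's neighbours (red) lie between 0.09 and 0.63, far below Mlana at 5.47, which was picked for its large difference.

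The genes whose pattern over the 4 arrays was most like Mlana's were found by the distance between mean-centred log2 values, a description over 4 points that holds any gene of similarly large difference. Adcy1, Il18r1 and Mro were below background on both DMSO arrays and Igfbp1 on 1 of them, so the order among these genes is not firm. Adcy1, an adenylyl cyclase, had a distance of 0.067, with signals of 509 and 514 on the 4-hydroxytamoxifen arrays, against 12 and 11.9 on the DMSO arrays, at least 31.2-fold higher. Igfbp1, an IGF-binding protein, lay at 0.46, with 684 and 571 on the 4-hydroxytamoxifen arrays, against 18.4 and 19.9 on the DMSO arrays. The gene named 0610040J01Rik, above background on all 4 arrays, lay at 0.57, Il18r1, a cytokine receptor, at 0.65 and Mro at 0.87. None of these 5 genes is in the lists of pigment or melanosome genes. The differences of Il18r1 and Mro are bounds, at least 6.60-fold and at least 14.5-fold.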

How the data were processed

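The deposited scanner files hold processed signals as intensity values on a linear scale. They were made by background subtraction in Feature Extraction 10.7.3.1, per the file headers, while the submitters' processing notes name version 9.5. The deposited value table holds log2 values that equal the log2 processed signal plus a constant for each array, with column medians of 6.35 and 6.35 for 4-hydroxytamoxifen and 6.16 and 6.18 for DMSO; how that constant was chosen is not given in the sources used here. All 4 arrays share 1 slide and 1 scan.

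From the files, control spots and 60 to 71 outlier spots an array were left out, log2 signals were centred on the array's 75th percentile, spots of a probe were averaged, probes above background on at least 2 of 4 arrays were kept, and the brightest probe stood for its gene. A limma fit (version 3.58.1, R 4.3.3) set the groups against each other, with Benjamini-Hochberg adjustment over 17537 features at 0.05. The fit was also run on simulated data with far fewer changed genes than the 69.5% of features called here. That run therefore says little about the calls reported. RefSeq (GRCm38.p6) named 33649 of 41174 probes, and 7525 kept the array's name. Bounds divide the brighter group's mean by the higher of the probe's signal and the lowest signal above background on each array of the other group.

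The genes and lists were chosen with earlier results of these data known. Named genes are all 10 pigment genes, up to 4 passing genes of each list with the largest differences (relatives and genes that did not pass are added as context, chosen after their values were seen), Mlana's neighbours, other neighbours of at least 2-fold, and the 5 nearest to Mlana. Alternatives were normexp background correction with an offset of 50, quantile, median and spike-in scaling, the deposited value table, a filter on all 4 arrays, no filter, the mean of a gene's probes, a replicate block, and leaving out each array. Same-numbered arrays did not deviate together (correlation −0.045), so the numbers were not taken to pair them. The values of some marker genes are not reported here.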

Additional observations from a re-analysis of the deposited data

How the results depend on the processing

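Over 13 alternatives, 219 values of 17 results were recomputed, 34 moved and 0 reversed. None of the 63 values of pigment gene differences changed direction. Mlana's difference was 3.99 with normexp background correction, 5.35 with quantile normalization, 5.29 with median scaling and 5.32 with spike-in scaling, and lay between 5.42 and 5.51 leaving out each array. With normexp, which adds an offset and so shrinks dim genes by construction, Mitf differed by 0.41, Dct by 0.90, Pmel by −1.22 and Mlph by 0.83. Dct and Mlph dropped out with a filter on all 4 arrays. The count of lower genes in the list of melanosome biogenesis and transport (1 as reported) was 3 with normexp, 5 with quantile normalization, 6 with median scaling, 0 with the deposited value table, 3 with a filter on all 4 arrays, 0 with no filter and 0 to 1 leaving out each array, and the count of higher genes (15) was 8 with spike-in scaling. Among Mitf relatives and targets the count of lower genes (1) was 3 with median scaling, 2 with a filter on all 4 arrays, 0 with no filter, 2 with a gene's probes averaged and 0 to 1 leaving out each array, and the count of higher genes (8) was 5 with a filter on all 4 arrays. Among transporters the count of higher genes (1) was 0 with a filter on all 4 arrays, and that of lower genes (0) was 1 with no filter and 0 to 1 leaving out each array. Lower neighbours (8) numbered 5 with spike-in scaling, 5 with no filter, 5 with the replicate block and 5 to 7 leaving out each array. The cause of these moves was not tested, beyond the smaller or larger number of features that the filters keep. With the replicate block 6496 features were higher and 4551 lower, against 7060 and 5135 without it, and apart from the lower neighbours it moved no count by over 1.5 times. The small number of arrays limits the precision, and signals under about 20 cannot be told from background.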
